A study of Mus musculus with 7 samples.

Results

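The natriuretic peptide system was followed here through 8 genes, chosen by name: the peptide genes Nppa, Nppb and Nppc, the receptor genes Npr1, Npr2 and Npr3, and the processing protease genes Corin and Furin. All 8 were present among the 15967 genes of the expression table. The tissue was mouse sinoatrial node of strain Sv129, 3 weeks after birth, from which poly-A RNA was sequenced. The Cre library came from mice of genotype Baf250af/f;Hcn4CreERT2, 6 days after tamoxifen, and the control library from Baf250af/f mice without the Cre. Both groups thus carried the floxed Baf250a alleles (gene symbol Arid1a, part of the chromatin-remodelling BAF complex), and the Cre is driven from Hcn4, a gene of pacemaker cells. The labels do not say whether the control mice received tamoxifen, how many mice were pooled, or their sex. Each genotype is represented by 1 library, so no difference could be checked against replicates or tested. Of the 7 samples of the series, the 5 of an earlier time series were not analysed here.

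Natriuretic peptides are hormones that the heart releases into the blood, where they lower blood pressure and promote salt loss. ANP, encoded by Nppa, is stored in granules of atrial muscle cells, BNP (Nppb) is made by atrial and ventricular muscle under load, and CNP (Nppc) acts mostly locally in vessels and cartilage. The receptors Npr1 and Npr2 make the messenger cyclic GMP, while Npr3 mainly removes the peptides. In the heart Nppa and Nppb mark working muscle, and Nppa is a known target of Nkx2-5, Tbx5 and Gata4 that is kept low in pacemaker cells by Tbx3.

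Of the 8 genes, 2 passed a 2-fold size rule, both towards the Cre library: Nppb, which encodes a peptide, and Corin, which encodes a protease. Levels are taken to be FPKM (fragments per kilobase of transcript, scaled to the mapped fragments of the library), a unit that the table's headers do not name and that was inferred from its Cufflinks layout. FPKM values are per length and so can be compared between genes. Ratios are log2 of FPKM + 1, Cre over control, which understates differences of weakly expressed genes. A ratio was counted as higher or lower from 2-fold on, provided the gene averaged 1 FPKM or more. This left 6 measured members, since Nppa has no completed comparison and Nppc lay below the minimum. The 2 higher members are 33.3% of these 6, and 0 were lower. Across all 13410 genes that met the minimum, 6.08% were higher and 10.4% were lower. All 6 measured members lay above equal expression, as did 46.0% of all genes, but with cardiomyocyte markers as the reference only Nppb and Corin did, and Npr3 also fell below it with 4 tissue marker lists as the reference. The median log2 ratio of the 6 was 0.72 (0.37 to 1.27), against -0.07 over all genes (quartiles -0.52 and 0.38). Of the 7 members with a completed comparison, 0 were called significant by the authors' deposited table, which called 0.564% of all completed genes.

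**Figure D1:**
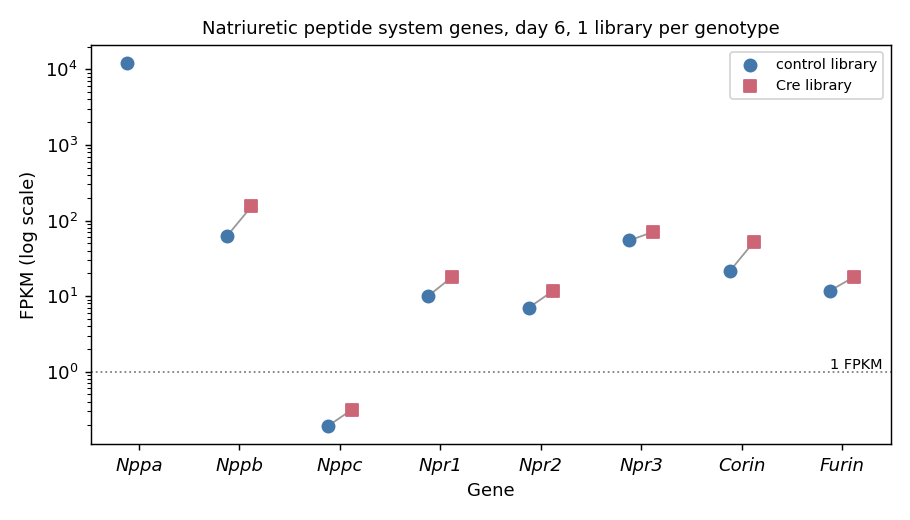
FPKM (log scale) of the 8 genes in the control library (circles) and the Cre library (squares), 1 library each, with lines joining the values of a gene. Nppa has a control value only (12217 FPKM), Nppc lies below 1 FPKM in both libraries, and Nppb and Corin show the steepest lines among the 6 measured genes.

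Some properties of the libraries touch these values. Arid1a, the floxed gene, had 34.9 FPKM (control) and 12.3 FPKM (Cre). What part the deletion and the cell content described next have in this difference was not tested. Markers of T cells and thymus were lower in 12 of 12 genes, with summed levels of 2833 FPKM (control) and 7.02 FPKM (Cre). Lung and airway markers were higher in 9 of 9 as deposited, with sums of 4188 and 18615 FPKM. Of all genes, 10.4% were lower and 6.08% higher. Of the T cell markers 11 lay under 1 FPKM in the Cre library and met the minimum only through the control. Of the lung markers 2, Sftpc (0.248 FPKM) and Cldn18 (0.0065 FPKM), lay under 1 FPKM in the control and met it only through the Cre library. The female-specific transcript Xist had 0.379 FPKM (control) and 93.2 FPKM (Cre) and the Y-linked gene Ddx3y 43.4 and 0.0739 FPKM, so sex and genotype cannot be told apart. Markers of atrial and general cardiomyocytes were higher in 4 of 12, with 11 above equal expression, a median of 0.85 and sums of 17665 and 24170 FPKM. Pacemaker markers were weak, with 6 of 8 reaching the minimum and none of these 6 above 7.03 FPKM in either library. In bulk tissue, more cells of a type and more RNA per cell cannot be told apart.

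Nppa, the ANP gene, was the most abundant transcript of the control library at 12217 FPKM (NM_008725, mm9 chromosome 4, 147374854 to 147376176). It stood 2.18 times above the next gene, Myl7, an atrial myosin light chain at 5603 FPKM, and 193 times above Nppb. The authors' deposited table lists its Cre value at 0 under the status HIDATA, the Cufflinks code for a locus with too many fragments to be estimated, so that 0 is not a level and no ratio was formed. The pacemaker channel gene Hcn4 had 0.605 FPKM in the same library.

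Nppb, the BNP gene, had 63.2 FPKM in the control library and 153 FPKM in the Cre library (NM_008726, mm9 chromosome 4, 147359897 to 147361314). The Cre value was the higher, by 2.40-fold on the FPKM + 1 scale (log2 ratio 1.27). Its rank among the 15965 genes with a completed comparison moved from 1296 in the control to 484 in the Cre library, and 96.8% of the genes that met the minimum had a lower ratio. The authors' deposited table gives it p = 0.112 and q = 0.999, from a test that compares these libraries and not the genotypes. Nppb stayed at least 2-fold higher when both libraries were set to the same upper quartile or the same sum, but its log2 ratio was 0.77 against the tissue markers and 0.42 against the cardiomyocyte markers. Set against each of the 12 measured atrial and general cardiomyocyte markers within a library, which removes the scaling between libraries, the level of Nppb per marker was higher in the Cre library for 9 and lower for 3. The Cre-to-control quotient of these proportions had a median of 1.35. It ran from 0.526 against Ttn, the giant sarcomere protein gene, to 2.80 against Sln, a regulator of the calcium pump, and the other two markers below 1 were the calcium release channel gene Ryr2 (0.652) and the Z-disc gene Actn2 (0.856). How Nppb stood to heart muscle thus depended on the marker used. By Euclidean distance of log2 levels over the 2 libraries, the genes most like Nppb were Selenbp1, Cpt1b and Atp1b1. Their distances were 0.10, 0.14 and 0.17. Selenbp1 had 67.8 FPKM (control) and 156 FPKM (Cre), and the carnitine palmitoyltransferase gene Cpt1b had 69.9 and 152 FPKM. The sodium pump subunit gene Atp1b1 had 66.1 and 137 FPKM.

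Nppc, the CNP gene, was barely detected, with 0.191 FPKM (control) and 0.315 FPKM (Cre; NM_010933, mm9 chromosome 1, 88562867 to 88567148). Both values lay under the minimum of 1 FPKM, and the log2 ratio of 0.14 was not read in either direction. Among the peptide genes of the control library the order was thus Nppa, Nppb, Nppc, and in the Cre library Nppb again lay above Nppc.

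The DNA just before the starts of Nppb and Nppa is shown because words resembling the sites of the factors named above stand there. The sequences are RefSeq's, for GRCm38.p6, and cover the 250 bases before each start on the plus strand, at chr4:147985650-147985899 for Nppb and chr4:148000472-148000721 for Nppa. Capitals mark the words searched on both strands: AGATAA or AGATAG or TGATAA or TGATAG for factors of the GATA family, AAGTG for Nkx2-5, and GGTGTGA, which reads TCACACC on the other strand, for T-box factors. No matches overlapped in these sequences.
Nppb: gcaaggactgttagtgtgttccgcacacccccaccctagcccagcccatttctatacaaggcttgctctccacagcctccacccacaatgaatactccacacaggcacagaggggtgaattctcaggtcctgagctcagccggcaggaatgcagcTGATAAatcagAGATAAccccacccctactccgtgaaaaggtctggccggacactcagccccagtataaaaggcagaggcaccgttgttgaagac
Nppa: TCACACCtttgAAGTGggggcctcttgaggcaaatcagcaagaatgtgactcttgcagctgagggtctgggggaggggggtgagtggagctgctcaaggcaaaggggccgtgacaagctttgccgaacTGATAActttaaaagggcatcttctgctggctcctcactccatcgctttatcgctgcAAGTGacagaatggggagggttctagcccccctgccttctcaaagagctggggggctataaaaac
The Nppb sequence holds 2 GATA words, starting 95 and 84 bases before the start, and no AAGTG or GGTGTGA. The Nppa sequence holds 1 GATA word, 122 bases before the start, 2 AAGTG words at 239 and 65 bases, and the T-box word at its far end, 250 bases before the start. Of 32851 promoters of the same length, 26.5% held a GATA word, 6.40% at least 2 of them, 40.7% AAGTG, 3.33% GGTGTGA and 0.451% all kinds together, as Nppa does. All 8 members had an entry, 9 in all, and the rest held none of these words except 1 of the 2 Furin promoters, with 4 AAGTG words. Corin, which was higher to the same degree as Nppb, had none in this window. A word match is a description of the letters and not a bound site.

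Factors known to act on Nppa and Nppb, whether raising them or, as Tbx3 does for Nppa, holding them down, were measured in 19 of 20 cases. Of these, 5 were at least 2-fold higher and 1 was lower, with a median log2 ratio of 0.76. The counts and the median pool both kinds of factor. Of all genes, 6.08% were higher and 10.4% lower, with a median of -0.07. Nkx2-5 had 11.04 FPKM (control) and 18.8 FPKM (Cre), Tbx5 had 10.99 and 22.2 FPKM, and Gata4 had 9.40 and 19.1 FPKM, all of them above equal expression as deposited, of which Nkx2-5 fell below it against the cardiomyocyte markers, and all short of 2-fold on the FPKM + 1 scale. Tbx3, which holds working-muscle genes down in pacemaker cells, had 0.996 and 2.59 FPKM, also short of 2-fold on that scale. Tbx3 passed the minimum of 1 FPKM only through the Cre library, where it was higher. The members furthest from equal expression were Myocd, a muscle coactivator at 1.44 and 6.97 FPKM, Tead1, which binds muscle enhancers, at 6.80 and 18.3 FPKM, and Klf13, a zinc-finger factor, at 26.8 and 11.7 FPKM. The counts depended on the settings. At least 2-fold higher were 8 of 19 with a pseudocount of 0.1, the same upper quartile, the same sum or centring on all genes. The share of all genes that was higher was 9.41% with that pseudocount, 8.23% with the same sum and 7.21% with that centring. With the same upper quartile 1345 of 13410 genes were higher. A minimum of 5 FPKM, which fewer of the 19 met, left 3 higher, against 4.56% of all genes that met it. With a pseudocount of 5, 0 of 19 were higher, against 1.77% of all genes. Against the tissue markers 1 of 19 was higher, where 1.98% of all genes were. Against the cardiomyocyte markers 0 of 19 were, where 0.708% of all genes were, and the median of the factors was -0.09. The lower count among these factors was 3 against either marker reference and 0 with a pseudocount of 5 or the same upper quartile. Of all genes, 25.7% were lower against the tissue markers and 44.8% against the cardiomyocyte markers. Against the latter the median of all genes was -0.92.

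The genes described around Nppb and Nppa had ratios on both sides of equal expression. The loci of the peptide genes lie 13540 bases apart, and 5 other genes within 100 kb of them were described. Of these, 0 were 2-fold higher or lower, 2 lay above and 3 below equal expression, and their median log2 ratio was -0.17. Across all genes, 6.08% were higher, 10.4% were lower and 46.0% lay above equal expression. Clcn6, a chloride transporter gene that lies beside Nppa, had 8.74 FPKM (control) and 5.30 FPKM (Cre), and 2510039O18Rik, the nearest gene on the Nppb side, had 17.8 and 12.04 FPKM. Mfn2, which fuses mitochondria, was closest to the size rule with 44.9 and 90.3 FPKM, which is 2.01-fold on plain FPKM but a log2 ratio of 0.99 on the FPKM + 1 scale, and Plod1, a collagen lysyl hydroxylase gene, had 13.7 and 22.8 FPKM. Agtrap, an angiotensin receptor partner gene, had 7.47 and 6.54 FPKM. Mfn2 was at least 2-fold higher with a pseudocount of 0.1, the same upper quartile, the same sum or centring on all genes. Against the tissue markers Clcn6 and 2510039O18Rik were lower, and the median was -0.66. Against the cardiomyocyte markers Agtrap was too, only Mfn2 of the 5 lay above equal expression, and the median was -1.01. Against these references the median of all genes was -0.57 and -0.92, and 25.7% and 44.8% of all genes were lower. With the same upper quartile the median of the 5 was 0.042, and that of all genes 0.14.

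**Figure D2:**
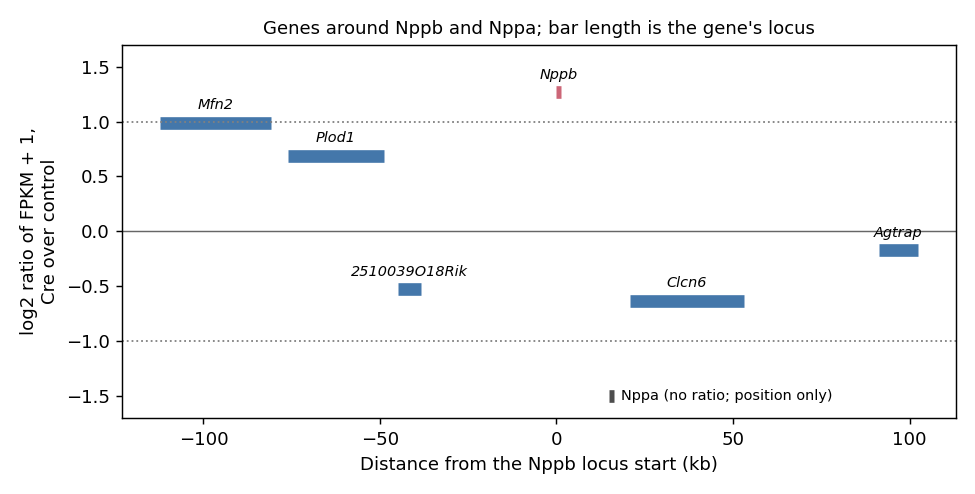
Log2 ratio of FPKM + 1 (Cre over control, as deposited, 1 library each) against distance from the Nppb locus start in kb, with each bar as long as the gene's locus and dotted lines at 2-fold. Nppb stands at 1.27 while the 5 other genes with a ratio lie between -0.63 and 0.99. Nppa is drawn at the bottom to show its place only.

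The receptor genes differed less than Nppb, and Npr3 was the most abundant in both libraries. Npr3, the clearance receptor, had 54.5 FPKM (control) and 70.8 FPKM (Cre; NM_001039181, mm9 chromosome 15, 11769651 to 11835429), a log2 ratio of 0.37 that became -0.13 against the tissue markers and -0.48 against the cardiomyocyte markers. Npr1, the cyclase receptor of ANP and BNP, had 10.04 and 18.1 FPKM (NM_008727, mm9 chromosome 3, 90254513 to 90269788), a log2 ratio of 0.79 that reached 2-fold with the same upper quartile and was -0.06 against the cardiomyocyte markers. Npr2, the cyclase receptor of CNP, had 7.02 and 11.7 FPKM (NM_173788, mm9 chromosome 4, 43644806 to 43664112), a log2 ratio of 0.66, or -0.19 against the cardiomyocyte markers. None of the receptor genes met the size rule as deposited.

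The balance between clearance and signalling receptors can be read within each library, free of the scaling between them. Npr3 stood 5.43 times above Npr1 in the control and 3.92 times in the Cre library, and 7.76 and 6.06 times above Npr2. The proportion of Npr3 to Npr1 in the Cre library was 0.722 of that in the control, and Npr1 to Npr2 was nearly level, at 1.43 and 1.55. Endothelial and endocardial cells express Npr1 and Npr3, and 0 of their 10 measured markers were 2-fold higher or lower, with a median log2 ratio of 0.56 and sums of 384 and 522 FPKM. Set against each of these 10 markers within a library, the level of Npr3 per marker was lower in the Cre library for 8 and higher for 2. The Cre-to-control quotient for Npr3 had a median of 0.864, with 0.653 against Plvap, a gene of fenestrated endothelium, as the lowest. Those above 1 were 1.27 against Emcn and 2.78 against Nfatc1. Npr1 was higher per marker for 8 of 10, with a median quotient of 1.20 (0.904 to 3.85), and Npr2 for 7 of 10, with a median of 1.11 (0.836 to 3.56). Nfatc1 gave the highest quotient for each receptor gene, with 9.56 FPKM (control) and 4.47 FPKM (Cre). The other 9 markers lay above equal expression as deposited, Emcn only just (log2 ratio 0.035). Nfatc1 took the direction of the T cell markers, whose part in its level and in these quotients was not tested. Smooth muscle and pericyte markers, whose cells also carry Npr1, had a median of 0.86 with 3 of 8 higher, and adipocyte markers, whose cells carry Npr1 and Npr3, a median of 0.51 with 1 of 7 higher. The part of these cells in the receptor levels was not tested.

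The proteases that free the hormones from their precursors differed in unlike degree. Corin, a membrane protease of cardiac muscle that cleaves the ANP precursor, had 21.3 FPKM (control) and 52.0 FPKM (Cre; NM_001122756, mm9 chromosome 5, 72691263 to 72895779). The Cre value was 2.38-fold higher on the FPKM + 1 scale (log2 ratio 1.25), 96.7% of genes that met the minimum had a lower ratio, and its rank moved from 4047 to 1396. The authors' deposited table gives Corin p = 0.098 and q = 0.999. Like that of Nppb, its ratio fell short of 2-fold against the tissue markers (0.75) and the cardiomyocyte markers (0.40). Furin, a protease of the secretory pathway in most cells that cleaves the precursors of BNP and CNP, had 11.8 and 17.97 FPKM (NM_001081454, mm9 chromosome 7, 87534079 to 87550317), a log2 ratio of 0.57, or -0.28 against the cardiomyocyte markers. The level of Corin was 1.80 times that of Furin in the control and 2.89 times in the Cre library. Per cardiomyocyte marker within a library, Corin was higher in the Cre library for 9 of 12 and lower for 3, namely Ttn, Ryr2 and Actn2 as for Nppb, with a median quotient of 1.36 (0.530 to 2.82). The transcripts of Corin and Nppb are 4639 and 781 bases long in GENCODE M21. The lengths of the marker transcripts were not compared. Whether transcript length bears on the ratios, or on the quotients per marker, was not tested.

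**Figure D3:**
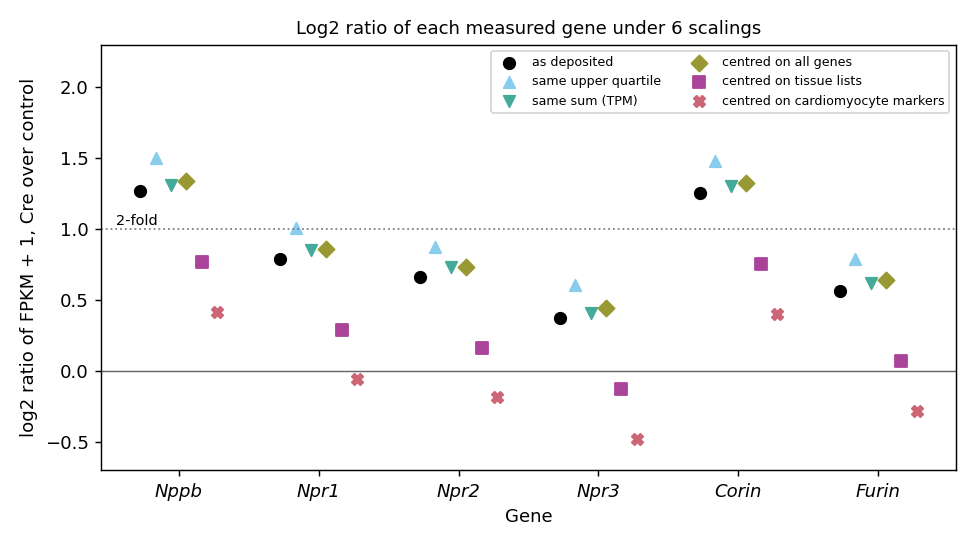
Log2 ratio of FPKM + 1 (Cre over control, 1 library each) of the 6 measured genes as deposited and under 5 other scalings, with the dotted line at 2-fold. Nppb and Corin stay above 0 in all 6 and below 2-fold when centred on the tissue lists or the cardiomyocyte markers, where Npr3 (both), Npr1, Npr2 and Furin (cardiomyocyte markers) lie below 0.

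Other proprotein convertases, the relatives of furin, had 0 of 5 measured members past 2-fold and a median log2 ratio of 0.57, which turned to -0.53 with a minimum of 5 FPKM, to -0.0054 with no minimum and to -0.28 against the cardiomyocyte markers. With a pseudocount of 0.1, 2 were higher, with the same upper quartile or the same sum 1 was higher, and against either marker reference 2 were lower. Pcsk6, which activates corin, had 8.92 FPKM (control) and 13.7 FPKM (Cre), the same log2 ratio of 0.57 as Furin. Pcsk5 had 2.49 and 5.37 FPKM and Pcsk4 had 0.935 and 2.28 FPKM. Pcsk4 thus passed the minimum of 1 FPKM only through the Cre library, where it was higher, and the median of 0.57 includes it. Mbtps1, which cleaves membrane-bound factors in the Golgi, had 53.0 and 31.0 FPKM. Among genes for breakdown of the peptides, 0 of 4 were higher and 1 was lower, against 6.08% and 10.4% of all genes. Mme, the peptidase neprilysin, had 10.4 and 18.2 FPKM and Ece1, which also cleaves vasoactive peptides, had 49.7 and 61.8 FPKM. Dpp4, a peptidase that T cells also carry, had 30.7 and 11.7 FPKM (log2 ratio -1.31), the direction that T cell markers took, whose part in it was not tested.

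Downstream of the receptors stood phosphodiesterase genes, most of them for enzymes that break down cyclic GMP. Of 10 measured members 2 were higher and 1 was lower, against 6.08% and 10.4% of all genes. Their median log2 ratio was 0.51. Pde1c had 3.85 FPKM (control) and 10.9 FPKM (Cre). Pde3a, whose enzyme is inhibited by cyclic GMP, had 4.59 and 11.7 FPKM. Pde1b was the lower one, at 8.29 and 1.79 FPKM. Pde2a, which cyclic GMP stimulates, had 7.43 and 13.9 FPKM, and Pde5a, the target of sildenafil, had 5.90 and 5.12 FPKM, both within 2-fold. Neither Pde1c nor Pde3a met the size rule against the tissue or the cardiomyocyte markers. With a pseudocount of 5 the list had 0 higher and 0 lower, where 1.77% and 6.0% of all genes were. Against the cardiomyocyte markers 3 of 10 were lower, where 44.8% of all genes were.

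Cyclic GMP kinases and their substrates had 0 of 6 measured members past 2-fold and a median of 0.42, and with the same upper quartile 2 were higher. Prkg1, the kinase of muscle and vessels, had 1.73 and 3.50 FPKM. Pln, the phospholamban gene of calcium reuptake, had 452 and 834 FPKM, and Mrvi1, a kinase substrate of smooth muscle, had 5.07 and 10.1 FPKM. The second source of cyclic GMP, the nitric oxide arm, had 1 of 3 measured members higher, against 6.08% of all genes. Gucy1a3, a subunit of soluble guanylyl cyclase, had 10.3 and 22.8 FPKM and fell short of 2-fold with a pseudocount of 5 and against either marker reference, while its partner Gucy1b3 had 18.7 and 23.9 FPKM and Nos3, the endothelial nitric oxide synthase gene, had 15.7 and 17.2 FPKM. Against the cardiomyocyte markers the medians of the phosphodiesterase, kinase, nitric oxide, breakdown and convertase lists all lay below 0. The median of all genes against that reference was -0.92, lower than each of these.

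**Figure D4:**
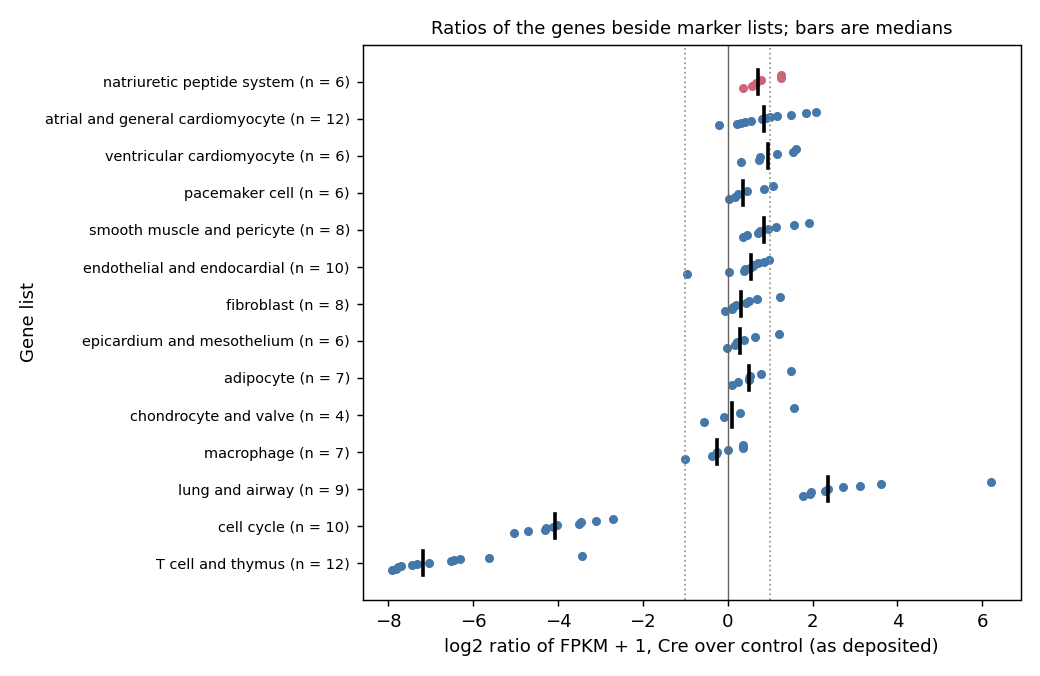
Log2 ratios of FPKM + 1 (Cre over control, as deposited) of the 6 measured genes of the natriuretic peptide system and of 13 marker lists, 1 point per gene, with black bars for medians and dotted lines at 2-fold. The median of the 6, at 0.72, lies between those of the endothelial (0.56) and the atrial and general cardiomyocyte markers (0.85), while T cell and lung markers lie far to either side, at -7.18 and 2.37.

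Set beside the marker lists, the 6 measured members thus had a median log2 ratio of 0.72. The genes listed as ventricular markers had 0.96 (3 of 6 higher), and atrial and general cardiomyocyte markers 0.85. Mybphl was lowest on the ventricular list at 0.32, and whether it marks ventricular muscle was not checked. Pacemaker markers had 0.35 (1 of 6), fibroblast markers 0.31 (1 of 8) and epicardium and mesothelium markers 0.30 (1 of 6). Chondrocyte and valve markers had 0.11 (1 of 4) and macrophage markers -0.26 (0 of 7 higher, 1 lower). Cell cycle markers were lower in 10 of 10, with a median of -4.07. Of these, 1 lay under 1 FPKM in the Cre library and met the minimum only through the control. Whether the content of muscle in the 2 dissected pieces bears on Nppb and Corin was not tested beyond the centred ratios given above.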

How the data were processed

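RNA was sequenced from 2 day-6 sinoatrial node libraries, 1 per genotype. Reads had been processed with TopHat, Bowtie and Cufflinks on mm9, per the submitters' processing notes. Versions, annotation, strand use and scaling: not given in the sources used here. One deposited table holds 1 value per gene and library, under headers that name no unit. FPKM was inferred from the deposited table's Cufflinks layout. Beside it stand, per the file headers, the authors' log2 fold change, p-value and q-value and the score of their test. FPKM shares out a library's reads, so abundant genes of one cell type lower the rest. Read depth is unknown, so no counting intervals are given. FPKM summed to 497407 in the control and 485189 in the Cre library.

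Of 15967 rows, 2 with status HIDATA were read in the control only, and 29 small-RNA genes were left out, leaving 13410 genes that averaged 1 FPKM or more. Log2 ratios of FPKM + 1 (pseudocount 1) were computed with pandas 2.3.3 and numpy 2.4.6. The code of the 2-fold rule was run on simulated data with planted changes well past 2-fold in well-expressed genes. That run checks the code and says nothing about the error of ratios near 2-fold or of weakly expressed genes. No test of genotypes was run. The genes and lists were chosen with earlier results of these data known. Named genes are the 8 members, up to 3 members per pathway list with the largest absolute ratio, 11 genes fixed by name, genes within 100 kb of Nppa and Nppb, and the 3 genes nearest Nppb in level; 1 gene is not reported here. Genes of the marker lists, the sex-linked genes, Hcn4 and Myl7 are named outside this rule, after their values had been seen. The tissue markers used for centring are the endothelial, fibroblast, epicardium and adipocyte lists. There were 9 alternatives, in pseudocount, minimum, scaling and centring; their use on the genes around Nppa and Nppb and the quotients per marker were added after seeing the data. Lengths of transcripts are those of GENCODE M21, matched by accession, and promoters came from RefSeq's GRCm38.p6, used apart from the mm9 coordinates.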

Additional observations from a re-analysis of the deposited data

How the results depend on the processing

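No paired analysis was possible because each genotype had 1 library, and no replicate could be left out. Over 9 alternatives, the 2 members at least 2-fold higher became 0 with centring on the tissue lists or the cardiomyocyte markers, and 3 with the same upper quartile. The median log2 ratio of the members, 0.72, was 0.78 and 0.54 with pseudocounts of 0.1 and 5, 0.66 with no minimum, 0.94 with the same upper quartile, 0.79 with the same sum, 0.80 centred on all genes, 0.23 centred on the tissue lists and -0.12 on the cardiomyocyte markers. Single members turned in direction at -0.13 for Npr3 (tissue lists) and, with the cardiomyocyte markers, at -0.060 for Npr1, -0.19 for Npr2, -0.48 for Npr3 and -0.28 for Furin. The pathway lists together held 11 higher genes of 59, which became 1 with a pseudocount of 5, 7 with a minimum of 5 FPKM, 19 with the same upper quartile, 1 with the tissue lists and 0 with the cardiomyocyte markers. List medians turned with the tissue lists to -0.082 for cyclic GMP kinases, -0.16 for the nitric oxide arm and -0.22 for peptide breakdown, and with the cardiomyocyte markers to -0.33 for phosphodiesterases, -0.43 for kinases, -0.51 for the nitric oxide arm, -0.57 for breakdown, -0.28 for convertases, -0.09 for transcription factors and -0.29 for vasoactive hormones. The convertase median was -0.53 with a minimum of 5 FPKM and -0.0054 with no minimum, and the median of the genes around Nppa and Nppb turned from -0.17 to 0.042 with the same upper quartile. Centring subtracts 0.50 (tissue lists) or 0.85 (cardiomyocyte markers) from each ratio by construction. The median of all genes then stood at -0.57 and -0.92, with 25.7% and 44.8% of all genes lower. The same upper quartile moved the median of all genes from -0.07 to 0.14 and the share of higher among all 2-fold differences from 36.9% to 55.5%; that share was 42.7% and 22.8% with pseudocounts of 0.1 and 5, 7.18% with the tissue lists and 1.56% with the cardiomyocyte markers. With 1 library per genotype and unknown depth, the error of a ratio is unknown, most of all for Nppc.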

Other observations

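Genes of other vasoactive hormones, which act beside or against the natriuretic peptides, were higher in 3 of 12 measured members and lower in 0. Of all genes, 6.08% were higher and 10.4% lower. The median log2 ratio of the 12 was 0.56 as deposited and 0.06 with the tissue markers as the reference. The higher members are all receptor genes. Ednra, the endothelin receptor of smooth muscle, had 7.16 FPKM (control) and 21.1 FPKM (Cre). Aplnr, the apelin receptor gene, had 1.72 and 5.01 FPKM, and Agtr2, an angiotensin receptor gene, had 0.681 and 2.38 FPKM, so that it passed the minimum of 1 FPKM only through the Cre library, where it was high. The count of 3 became 1 with a minimum of 5 FPKM or a pseudocount of 5, where 4.56% and 1.77% of all genes were higher. None of them met the size rule with the tissue or the cardiomyocyte markers as the reference. Smooth muscle and pericyte markers were higher in 3 of 8, with summed levels of 676 FPKM (control) and 1110 FPKM (Cre), and their part in these values was not tested.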
